A study of Vitis vinifera with 36 samples.

Results

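Expression was described for 6 genes that the study placed around the transcription factor GATA26 in ripening grape berries. They are GATA26, eRF1-3, PTDSS2, a MADS-box gene, CIPK25 and RADIALIS, and they were found by their identifiers, 6 of the 25280 genes in the deposited table. The study had picked GATA26 as a hub of a co-expression module built on these same libraries, and the other 5 from ripening switch genes published earlier, which are genes low in green berries and high in ripe ones. The choice thus used the levels in all 36 libraries and the differences between treated and untreated berries, so the values of the 6 genes are given as a description, with no p-value. All 6 were among the 17598 genes with at least 1 FPKM (fragments per kilobase of transcript, scaled to the mapped fragments of the library) in at least 3 libraries.

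Berries of Vitis vinifera cv. Cabernet Sauvignon were sprayed while hard and green (E-L 33, 7 weeks after flowering) and again 10 hours later. They were then picked at 4 stages of the modified Eichhorn-Lorenz (E-L) scale. ABA1000 vines received 1000 mg/L abscisic acid, NAA100 vines 100 mg/L of the synthetic auxin 1-naphthaleneacetic acid, and Control vines only the 0.05% Tween 20 that all sprays contained. The stages were E-L 34, when berries begin to soften, E-L 35, when they begin to colour, E-L 36, with intermediate sugar, and E-L 38, harvest ripeness. Each of the 12 groups had 3 libraries, from 3 field plots of 50 vines, and each RNA came from 50 deseeded berries (whole pericarp). Berries were picked by stage and not by date, so groups of 1 stage can differ in age. The paper reports that harvest ripeness came earlier than in Control in ABA1000 berries and later in NAA100 berries.

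In grape, abscisic acid increases and auxin declines as ripening starts, and auxin sprays are known to delay it. GATA factors are zinc finger proteins that bind DNA at GATA motifs. CIPK kinases are switched on by CBL proteins, which sense calcium, whereas eRF1 reads stop codons at the ribosome and releases the finished protein. Phosphatidylserine is a membrane phospholipid, MADS-box proteins set organ identity and developmental timing in plants, and RADIALIS is a small MYB-type protein known from the asymmetry of the snapdragon flower.

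Library sizes recovered from the FPKM steps were between 25.5632 and 28.6818, in units of 1e6 fragments. The NAA100 E-L 36 libraries stood with the E-L 38 libraries over the whole transcriptome. The median difference between 2 libraries over all genes, in size on the log2(FPKM + 1) scale, was 0.126 to 0.167 for pairs of an NAA100 E-L 38 and an NAA100 E-L 36 library, 0.191 to 0.222 for NAA100 E-L 36 against Control E-L 38, and 0.469 to 0.573 for NAA100 E-L 36 against Control E-L 36. In limma, 2 genes were called between E-L 38 and E-L 36 of NAA100 (1642 genes at an unadjusted p under 0.05), against 3401 in ABA1000 and 3032 in Control. The effect of NAA and that of a more advanced berry cannot be told apart at E-L 36 from these data, and every NAA100 value at E-L 36 below carries this limit. ABA1000 berries were picked by stage as well, so the effect of abscisic acid and that of berry age or ripeness cannot be told apart either. The 5 ripening markers, summed, gave 12.3 to 40.7 FPKM in NAA100 and 231 to 395 FPKM in Control at E-L 34. At E-L 36 the sums overlapped (374 to 423 FPKM in NAA100 and 362 to 487 FPKM in Control), and Control E-L 38 lay below both, at 274 to 301 FPKM. In ABA1000 the sums were above those of Control without overlap, at 496 to 632 FPKM at E-L 34 and 699 to 855 FPKM at E-L 36. Markers of different direction are pooled in this sum. Of 4 tested, 2 rose and 1 fell in Control between E-L 34 and E-L 38. MYBA2 was 1 of the 2 (log2 difference 1.33), and leaving out 1 library lost that call in 4 of 6 fits. In NAA100 at E-L 36 only MYBA2 was called, higher, and leaving out 1 library lost that call in 3 of 6 fits. The gene listed as the anthocyanin glucosyltransferase UFGT was under 1 FPKM in every library. Whether that identifier is the UFGT of the berry was not tested. The 19 seed storage protein genes, 4 of them under 1 FPKM throughout, summed to between 92.7 and 3115 FPKM in a library, although the berries were deseeded. At E-L 36 their sums were 102 to 162 FPKM in NAA100 and 100.3 to 533 FPKM in Control, and their part in the differences was not tested.

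In every treatment the 6 genes were low at E-L 34 and high at E-L 38. What set the treatments apart was E-L 36, where NAA100 berries already held the harvest level of all 6 genes, Control berries had covered part of the distance for most of them, and ABA1000 berries were lower than Control berries in all 6. The plot of all libraries shows this for each gene.

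**Figure D1:**
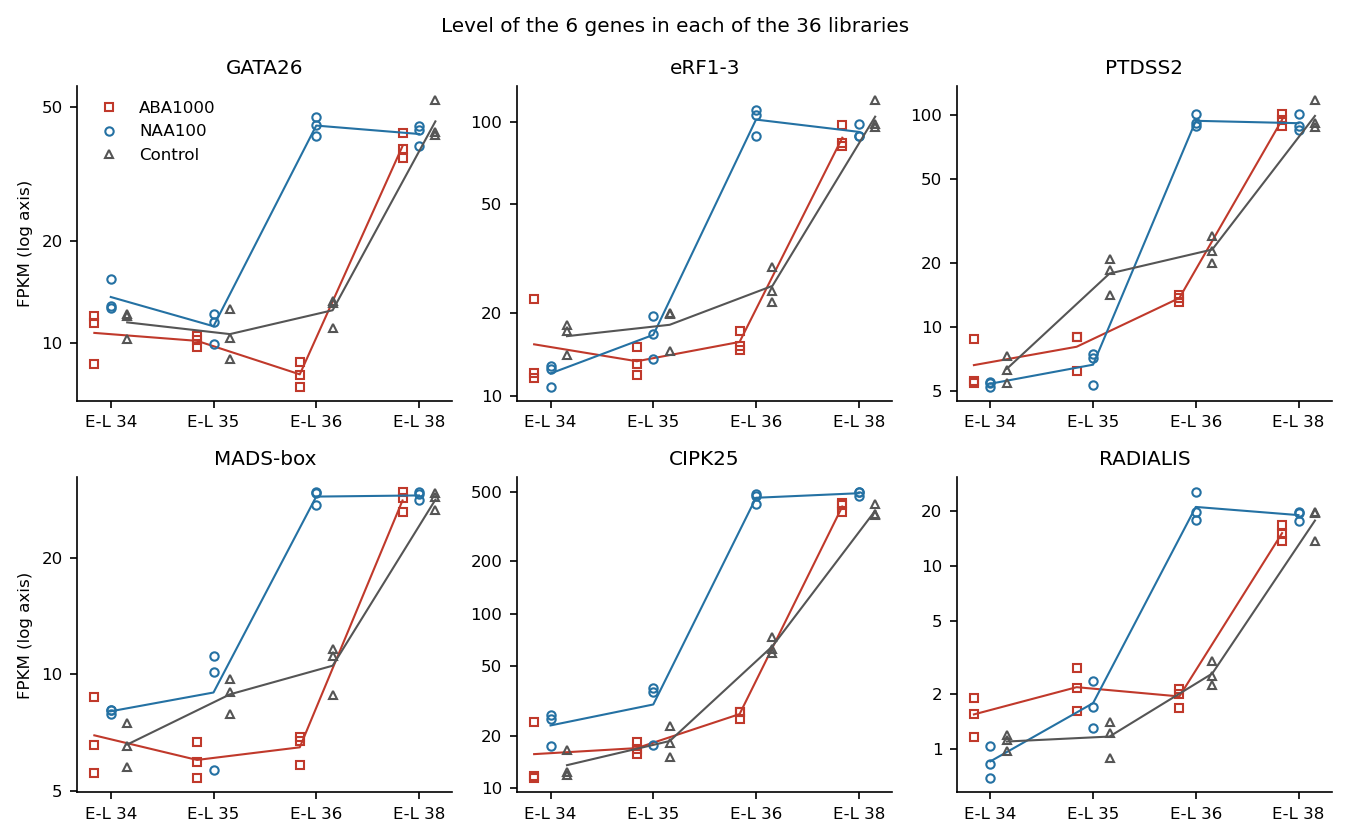
FPKM of the 6 genes (log axis) at E-L 34, 35, 36 and 38 in ABA1000 (squares), NAA100 (circles) and Control (triangles), with 1 symbol per library and lines through the means of 3. The NAA100 symbols of E-L 36 lie at the level of the E-L 38 symbols in all 6 panels, for example 44.0 FPKM of GATA26 on average in NAA100 E-L 36 and 45.3 FPKM in Control E-L 38.

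GATA26 (VIT_200s2393g00010) lies at 41800730 to 41802833 on the plus strand of the unplaced sequence (chrUn in the table). The table describes it as a partial GATA transcription factor 26-like protein and gives the Pfam entry DUF4378, not a zinc finger. ABA1000 libraries of GATA26 held 12.01, 8.61 and 11.4 FPKM at E-L 34, 10.5, 9.71 and 10.2 FPKM at E-L 35, 8.01, 7.40 and 8.73 FPKM at E-L 36, and 41.9, 35.2 and 37.6 FPKM at E-L 38. NAA100 libraries of GATA26 held 12.7, 12.9 and 15.4 FPKM at E-L 34, 12.1, 11.5 and 9.88 FPKM at E-L 35, 40.9, 46.8 and 44.3 FPKM at E-L 36, and 42.6, 43.8 and 38.2 FPKM at E-L 38. Control libraries of GATA26 held 12.003, 12.2 and 10.2 FPKM at E-L 34, 8.95, 10.3 and 12.5 FPKM at E-L 35, 13.3, 13.1 and 11.1 FPKM at E-L 36, and 42.2, 41.3 and 52.3 FPKM at E-L 38. GATA26 stayed at or below 15.4 FPKM until E-L 36 in ABA1000 and Control and until E-L 35 in NAA100, and the 4 high groups overlapped in order. Within the low range, ABA1000 libraries of E-L 36 lay below those of E-L 35, and NAA100 libraries of E-L 35 below those of E-L 34. At E-L 36 it averaged 44.0 ± 2.93 FPKM in NAA100 and 12.5 ± 1.22 FPKM in Control (SD, n = 3 each), a mean ratio of 3.53 and a log2 difference of 1.74 (SE 0.118). ABA1000 averaged 8.05 ± 0.666 FPKM at E-L 36 against the same Control libraries, a log2 difference of -0.57 (SE 0.118), and no library overlapped. In order of the group means, the 4 high groups ran from Control E-L 38 through NAA100 E-L 36 and NAA100 E-L 38 to ABA1000 E-L 38 with overlapping neighbours, and the lowest group, ABA1000 E-L 36, lay apart from the next.

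eRF1-3 (VIT_218s0072g01010; chromosome 18, 20461223 to 20466079, minus strand) encodes a subunit of the peptide chain release factor. ABA1000 libraries of eRF1-3 held 22.5, 12.1 and 11.6 FPKM at E-L 34, 15.1, 13.1 and 11.9 FPKM at E-L 35, 17.3, 15.2 and 14.7 FPKM at E-L 36, and 96.8, 83.6 and 81.7 FPKM at E-L 38. NAA100 libraries of eRF1-3 held 10.8, 12.6 and 12.8 FPKM at E-L 34, 16.8, 19.6 and 13.7 FPKM at E-L 35, 88.9, 106 and 110.5 FPKM at E-L 36, and 88.9, 97.8 and 88.7 FPKM at E-L 38. Control libraries of eRF1-3 held 17.3, 18.1 and 14.1 FPKM at E-L 34, 14.6, 20.1 and 19.8 FPKM at E-L 35, 29.5, 21.9 and 24.1 FPKM at E-L 36, and 97.7, 95.5 and 119.6 FPKM at E-L 38. The first ABA1000 library of E-L 34 stood above the other two, and Control E-L 36 lay apart from the high groups and from the next group below, Control E-L 35, but overlapped that first ABA1000 library of E-L 34. The mean at E-L 36 was 102 ± 11.4 FPKM in NAA100 and 25.2 ± 3.93 FPKM in Control, a ratio of 4.04 (log2 difference 1.98, SE 0.172). In ABA1000 it was 15.7 ± 1.34 FPKM, a log2 difference of -0.64 (SE 0.172) from Control. At E-L 34 the order was the other way for NAA100, which averaged 12.1 ± 1.10 FPKM against 16.5 ± 2.09 FPKM in Control (log2 difference -0.42), again with no overlap.

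PTDSS2 (VIT_201s0011g04370; chromosome 1, 3981507 to 3994168, plus strand) is the study's name for a gene that the table annotates as CDP-diacylglycerol--serine O-phosphatidyltransferase 1, an enzyme that makes phosphatidylserine. ABA1000 libraries of PTDSS2 held 8.80, 5.46 and 5.56 FPKM at E-L 34, 9.01, 6.22 and 8.96 FPKM at E-L 35, 14.2, 13.7 and 13.2 FPKM at E-L 36, and 101, 89.0 and 94.2 FPKM at E-L 38. NAA100 libraries of PTDSS2 held 5.46, 5.50 and 5.23 FPKM at E-L 34, 5.30, 7.13 and 7.48 FPKM at E-L 35, 89.0, 91.1 and 101 FPKM at E-L 36, and 88.9, 101 and 84.5 FPKM at E-L 38. Control libraries of PTDSS2 held 7.27, 5.47 and 6.29 FPKM at E-L 34, 18.6, 20.8 and 14.2 FPKM at E-L 35, 26.7, 19.9 and 22.9 FPKM at E-L 36, and 87.9, 91.5 and 117 FPKM at E-L 38. Of the 6 genes PTDSS2 was the one already higher in Control at E-L 35 by more than 1 on the log2 scale, with 8.06 ± 1.60 FPKM in ABA1000 and 6.64 ± 1.17 FPKM in NAA100 against 17.9 ± 3.39 FPKM in Control (log2 differences -1.06 and -1.30, SE 0.156 each). One stage later it averaged 93.8 ± 6.45 FPKM in NAA100 and 23.2 ± 3.397 FPKM in Control (ratio 4.05, log2 difference 1.98), so that NAA100 stood below Control at E-L 35 and above it at E-L 36. ABA1000 remained below Control at E-L 36, with 13.7 ± 0.501 FPKM and a log2 difference of -0.71. The gene overlaps VIT_201s0011g04380 on the opposite strand (chromosome 1, 3993830 to 3996493), and whether the counting used strand is not given in the sources used here. That neighbour, annotated as a palmitoyl-acyl carrier protein thioesterase, was also higher late, with means of 2.73 FPKM in NAA100 and 0.259 FPKM in Control at E-L 36, but at most 4.25 FPKM in any library.

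The MADS-box gene (VIT_213s0158g00100; chromosome 13, 20978294 to 20989034, minus strand) carries mixed annotation, with AGL15 as its closest Swiss-Prot entry and the MADS domain entry SRF-TF of Pfam, but a BPS1-like chloroplastic protein as its closest NR entry. AGL15 is known in Arabidopsis as a MADS-box factor of embryos and of delayed floral organ ageing. ABA1000 libraries of the MADS-box gene held 8.75, 6.55 and 5.56 FPKM at E-L 34, 6.70, 5.93 and 5.39 FPKM at E-L 35, 5.83, 6.72 and 6.87 FPKM at E-L 36, and 29.7, 28.6 and 26.4 FPKM at E-L 38. NAA100 libraries of the MADS-box gene held 7.91, 8.10 and 8.07 FPKM at E-L 34, 11.1, 10.1 and 5.64 FPKM at E-L 35, 29.5, 27.4 and 29.7 FPKM at E-L 36, and 29.6, 29.3 and 28.2 FPKM at E-L 38. Control libraries of the MADS-box gene held 6.51, 7.47 and 5.77 FPKM at E-L 34, 9.02, 9.74 and 7.88 FPKM at E-L 35, 11.6, 8.83 and 11.2 FPKM at E-L 36, and 29.5, 26.6 and 28.9 FPKM at E-L 38. The high groups agreed closely, with means between 28.2 and 29.1 FPKM, while the third NAA100 library of E-L 35 was low. At E-L 36 the MADS-box gene averaged 28.9 ± 1.28 FPKM in NAA100 and 10.5 ± 1.49 FPKM in Control, a ratio of 2.74 and a log2 difference of 1.38 (SE 0.151), the smallest of the 6. In ABA1000 it averaged 6.48 ± 0.565 FPKM, a log2 difference of -0.62 (SE 0.151) from Control. Its ABA1000 libraries lay below those of Control at E-L 35 too, with 6.01 ± 0.657 FPKM against 8.88 ± 0.938 FPKM (log2 difference -0.50).

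CIPK25 (VIT_204s0008g05770; chromosome 4, 5291827 to 5293589, minus strand) is annotated as a CBL-interacting serine/threonine-protein kinase. For CIPK25 the ABA1000 libraries gave 23.8, 11.7 and 11.4 FPKM at E-L 34, 18.5, 16.7 and 15.7 FPKM at E-L 35, 27.3, 24.97 and 27.4 FPKM at E-L 36, and 433, 384 and 423 FPKM at E-L 38. The NAA100 libraries gave 17.5, 24.8 and 26.3 FPKM at E-L 34, 37.4, 35.5 and 17.6 FPKM at E-L 35, 478, 489 and 425 FPKM at E-L 36, and 501, 502 and 475 FPKM at E-L 38. The Control libraries gave 11.8, 16.5 and 12.3 FPKM at E-L 34, 15.1, 22.6 and 18.1 FPKM at E-L 35, 73.3, 59.7 and 62.6 FPKM at E-L 36, and 377, 367 and 429 FPKM at E-L 38. CIPK25 reached the highest FPKM of the 6 genes, and the third NAA100 library of E-L 35, which was also low for the MADS-box gene, held less of it than the other two. That library had 2713 FPKM of summed seed storage genes, and the part of seed RNA in its values was not tested. The CIPK25 mean at E-L 36 was 464 ± 33.9 FPKM in NAA100 and 65.2 ± 7.13 FPKM in Control, a ratio of 7.12 and a log2 difference of 2.82 (SE 0.22). ABA1000 averaged 26.6 ± 1.38 FPKM there, a log2 difference of -1.26 (SE 0.22). CIPK25 was also higher in NAA100 at E-L 34, with 22.9 ± 4.69 FPKM against 13.5 ± 2.57 FPKM in Control and no overlap, and at E-L 38, with 493 ± 15.0 FPKM against 391 ± 32.9 FPKM (log2 differences 0.71 and 0.34).

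RADIALIS (VIT_207s0005g02730; chromosome 7, 5011631 to 5015832, minus strand) was the least abundant of the 6 genes, and below 1 FPKM in some libraries. For RADIALIS the ABA1000 libraries gave 1.16, 1.56 and 1.90 FPKM at E-L 34, 1.60, 2.14 and 2.77 FPKM at E-L 35, 1.68, 2.12 and 2.001 FPKM at E-L 36, and 13.7, 14.9 and 16.6 FPKM at E-L 38. RADIALIS in NAA100 libraries came to 1.04, 0.692 and 0.831 FPKM at E-L 34, 1.29, 1.69 and 2.35 FPKM at E-L 35, 17.8, 19.7 and 25.3 FPKM at E-L 36, and 19.6, 17.6 and 19.5 FPKM at E-L 38. RADIALIS in Control libraries came to 1.12, 1.197 and 0.976 FPKM at E-L 34, 0.891, 1.22 and 1.39 FPKM at E-L 35, 2.49, 2.22 and 3.02 FPKM at E-L 36, and 19.5, 13.7 and 19.7 FPKM at E-L 38. Unlike the other 5 genes it was higher in ABA1000 than in Control at E-L 35, with 2.17 ± 0.586 FPKM and 1.17 ± 0.255 FPKM and no overlap (log2 difference 0.54, SE 0.155), and at E-L 36 it was lower in ABA1000, with 1.93 ± 0.225 FPKM against 2.58 ± 0.406 FPKM in Control (log2 difference -0.28). In NAA100 at E-L 36 it averaged 20.9 ± 3.91 FPKM, the largest mean ratio to Control of the 6 genes at 8.13 (log2 difference 2.61, SE 0.155). Since 1 is added to each FPKM before the log, this low gene's log2 differences understate its ratios. Its fragments numbered between 76 and 2615 per library, against 558 to 23154 for CIPK25, so counting error is a larger part of its spread.

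The size of the difference between harvest and E-L 34 differed among the genes and was alike between treatments for most of them. E-L 38 means over E-L 34 means were 3.58 in ABA1000, 3.04 in NAA100 and 3.95 in Control for GATA26, and 4.06, 3.62 and 4.31 in the same order for the MADS-box gene. For eRF1-3 these ratios were 5.67 in ABA1000, 7.61 in NAA100 and 6.32 in Control, and for PTDSS2 they were 14.4, 16.9 and 15.6. CIPK25 had ratios of 26.4 in ABA1000, 21.6 in NAA100 and 28.9 in Control. RADIALIS varied most between treatments, with 9.78 in ABA1000, 22.1 in NAA100 and 16.1 in Control, its E-L 34 mean being 0.854 FPKM in NAA100 and 1.10 FPKM in Control. The median log2 difference of the 6 genes, E-L 38 minus E-L 34, was 2.58 in ABA1000, 3.13 in NAA100 and 2.86 in Control, while the median over all 17598 genes was 0.05, -0.21 and -0.07. All 6 passed the limits for a call in each treatment (a log2 difference of 1 or more in size, with a limma p no higher than 0.01 after adjustment). Among all genes 9.93% did so upward in ABA1000, 7.85% in NAA100 and 9.48% in Control, and nothing is read from the 6, since these libraries chose them. In bulk tissue of this kind, more cells of a type and more RNA per cell cannot be told apart.

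Between E-L 34 and E-L 38, all 6 genes passed the limits at a single step in ABA1000 and in NAA100. In Control all 6 did so at the last step, and PTDSS2 and CIPK25 also at an earlier one. From E-L 35 to E-L 36 all 6 genes passed the limits upward in NAA100 (8.94% of all genes), none did in ABA1000 (0.807%), and 1, CIPK25, did in Control (0.790%). From E-L 36 to E-L 38 it was 6 of 6 upward in ABA1000, none in NAA100 and 6 of 6 upward in Control. Of all 17598 genes, 1944 passed them upward in ABA1000 and 1666 in Control. In either direction it was 19.3% in ABA1000, 0.0114% in NAA100 and 17.2% in Control. From E-L 34 to E-L 35 it was none in ABA1000 (0.0625%) and NAA100 (1.24%), and PTDSS2 alone in Control (0.977%). Placing each stage between the E-L 34 mean (0%) and the E-L 38 mean (100%) of its own treatment on the log2(FPKM + 1) scale, the 6 genes at E-L 36 stood between -20.4% and 26.5% in ABA1000, between 98.0% and 105% in NAA100, and between 5.82% and 46.1% in Control. Within Control the genes spread widely at that stage. GATA26 stood at 5.82%, eRF1-3 at 22.3%, RADIALIS at 24.4%, the MADS-box gene at 30.8%, PTDSS2 at 45.6% and CIPK25 at 46.1%. GATA26 thus had the lowest value of the 6 in Control, and PTDSS2 stood at 35.9% already at E-L 35. In ABA1000 the values of GATA26 (-20.4%) and the MADS-box gene (-3.84%) were negative, their E-L 36 means being below their E-L 34 means.

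**Figure D2:**
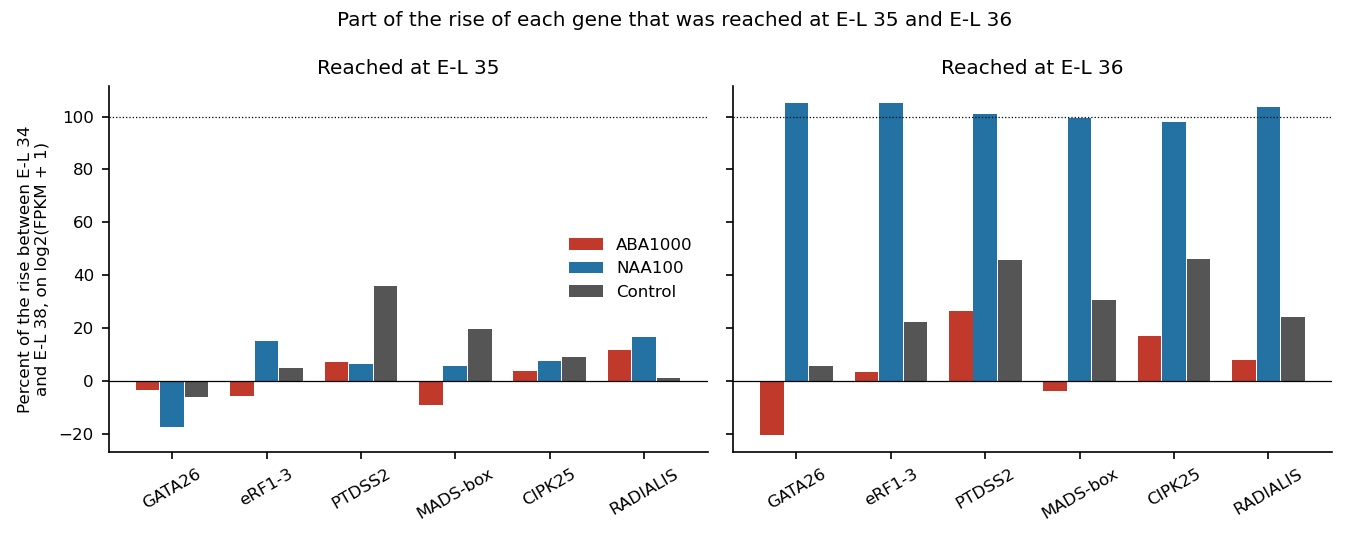
Percent of the difference between the E-L 34 and E-L 38 means, on the log2(FPKM + 1) scale and within each treatment, that each gene had reached at E-L 35 (left) and E-L 36 (right), with bars for ABA1000, NAA100 and Control and a dotted line at 100. At E-L 36 the NAA100 bars lie between 98.0 and 105, the Control bars between 5.82 and 46.1, and the ABA1000 bars between -20.4 and 26.5.

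NAA100 E-L 36 was also set against Control E-L 38, to ask how far the 6 genes still differed between these 2 groups. Their log2 differences, NAA100 E-L 36 minus Control E-L 38, lay between -0.07 (PTDSS2) and 0.25 (CIPK25), with a median of -0.004 and -0.05 over all genes. None passed the limits (3.67% of all genes did in either direction), and the libraries of the 2 groups overlapped for each gene. Between E-L 38 and E-L 36 within NAA100 the log2 differences were -0.14 to 0.09. That none passed the limits does not show that the levels are equal.

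Comparing the treatments with Control by stage, the median of the 6 genes differed most at E-L 36 in both, although PTDSS2 and RADIALIS differed more at E-L 35 than at E-L 36 in ABA1000. The median log2 difference of the 6 genes in NAA100 was 0.025 at E-L 34, 0.02 at E-L 35, 1.98 at E-L 36 and -0.03 at E-L 38. The median over all genes at E-L 36 was 0.09. All 6 passed the limits upward at E-L 36 (9.05% of all genes, with 10.8% downward), and in each of the 6 all NAA100 libraries were above all Control libraries (41.7% of all genes). At E-L 35 only PTDSS2 passed them, downward (1.16%), and none did at E-L 34 (3.79% of all genes in either direction) or E-L 38 (3.42%). At E-L 34 all NAA100 libraries were above all Control libraries for 3 of the 6 (26.5% of all genes) and below them for 1, eRF1-3 (16.4%). The same median in ABA1000 was 0.04 at E-L 34, -0.26 at E-L 35, -0.63 at E-L 36 and -0.125 at E-L 38, against -0.065 over all genes at E-L 36. There all ABA1000 libraries were below all Control libraries in each of the 6 genes (24.8% of all genes), but only CIPK25 passed the limits (0.176%), while at E-L 35 only PTDSS2 did, downward (0.608%), and none did at E-L 34 (0.688% in either direction) or E-L 38 (0.648%). Both treatments were set against the same Control libraries, so their differences share the error of those.

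**Figure D3:**
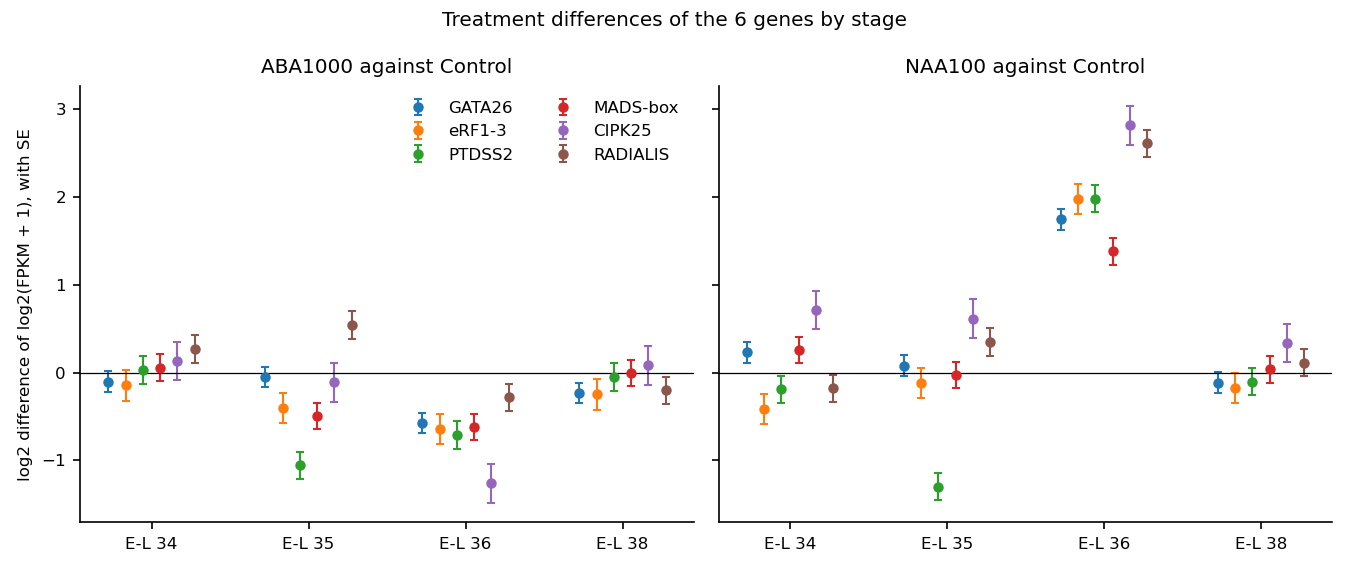
Log2 difference from Control on the log2(FPKM + 1) scale, with the standard error of the joint fit, for the 6 genes at each stage in ABA1000 (left) and NAA100 (right). At E-L 36 all 6 NAA100 points lie between 1.38 and 2.82 and all 6 ABA1000 points between -1.26 and -0.28, and at E-L 38 the points of both panels lie between -0.25 and 0.34.

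Relatives of the 6 genes, which the rule did not use, were tested with limma. As a background for the counts that follow, 1592 of all 17598 genes rose and 1904 fell in NAA100 at E-L 36, and 86 rose and 31 fell in ABA1000 at E-L 36. Between E-L 34 and E-L 38, 1748 rose and 2542 fell in ABA1000, 1381 and 4232 in NAA100, and 1668 and 3168 in Control. One relative was a second gene annotated as GATA transcription factor 26, VIT_200s0287g00040 (chrUn, 21555825 to 21559859, minus strand). Its libraries held 38.8, 41.2 and 41.7 FPKM in NAA100 and 15.2, 11.9 and 14.8 FPKM in Control at E-L 36, so that the groups lay apart, and the log2 difference was 1.48 (SE 0.128, limma, adjusted p = 7.2e-11). It rose between E-L 34 and E-L 38 by a log2 difference of 1.65 in ABA1000, 1.53 in NAA100 and 1.61 in Control (limma, adjusted p = 6.0e-12, 1.9e-11 and 8.6e-12). At E-L 36 it was 8.81 ± 1.05 FPKM in ABA1000 and 14.0 ± 1.82 FPKM in Control, a log2 difference of -0.61 that did not reach the size limit (limma, adjusted p = 0.00287). Whether this gene and GATA26 share reads could not be checked here, so their separate levels are uncertain. The other GATA genes called in NAA100 at E-L 36 were lower. Of 15 relatives tested, this gene included, 1 rose (this gene) and 3 fell in NAA100 against Control at E-L 36 (median -0.15, against 0.09 over all genes), and between E-L 34 and E-L 38 it was 2 and 5 in ABA1000, 1 and 6 in NAA100, and 1 and 5 in Control. GATA8 (VIT_213s0019g04390) fell to 9.72 ± 1.65 FPKM in NAA100 E-L 36, against 54.6 ± 5.65 FPKM in Control (log2 difference -2.38, SE 0.218, limma, adjusted p = 2.1e-10), and GATA16 (VIT_205s0077g01450) to 0.41 ± 0.127 FPKM, against 4.64 ± 0.716 FPKM (log2 difference -1.997, limma, adjusted p = 1.8e-09). GATA5 (VIT_203s0038g00490), the 1 GATA relative called in ABA1000 at E-L 36, was higher there, with 11.7 ± 1.86 FPKM against 5.07 ± 0.829 FPKM in Control (log2 difference 1.06, limma, adjusted p = 0.00134). Without ABA1000 library 2 (0.96) or Control library 1 (0.95) it missed the size limit.

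The other gene annotated as CIPK25, VIT_209s0070g00140, ran opposite to the CIPK25 of the 6. It averaged 191 ± 27.5, 214 ± 19.1, 108 ± 6.18 and 12.9 ± 1.86 FPKM at E-L 34, 35, 36 and 38 in ABA1000, and 108 ± 21.0, 110.7 ± 20.1, 91.7 ± 6.21 and 12.7 ± 5.53 FPKM in Control. In NAA100 it was at its late level already at E-L 36, with 10.4, 8.97 and 9.45 FPKM, against 86.4, 98.5 and 90.1 FPKM in Control (log2 difference -3.13, SE 0.235, limma, adjusted p = 4.8e-12). In the third NAA100 library of E-L 35 it was high, at 181 FPKM, where the CIPK25 of the 6 was low. Its r to CIPK25 over the 12 group means was -0.966. Of the 27 relatives tested in the CIPK and CBL families, 3 rose and 2 fell in NAA100 at E-L 36 (median 0.11) and none was called in ABA1000. Besides VIT_209s0070g00140, the CIPK VIT_209s0070g00160 fell in NAA100 E-L 36 (48.5 ± 2.70 FPKM against 150.1 ± 9.31 FPKM in Control, log2 difference -1.61, limma, adjusted p = 7.1e-08), and CIPK5 (VIT_210s0003g01410) rose (32.2 ± 5.56 FPKM against 8.70 ± 0.688 FPKM, log2 difference 1.76, limma, adjusted p = 0.0004). Between E-L 34 and E-L 38, 3 rose and 3 fell in ABA1000, 3 and 6 in NAA100, and 2 and 4 in Control.

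Of 17 MADS-box relatives tested (median -0.21 in NAA100 at E-L 36), the only one called at E-L 36 was VIT_200s0313g00070, annotated as SVP, a repressor of flowering in Arabidopsis. It rose in NAA100 to 58.5, 72.2 and 73.4 FPKM, against 21.4, 17.2 and 22.2 FPKM in Control (log2 difference 1.70, SE 0.202, limma, adjusted p = 2.6e-08). Its harvest level was lower in NAA100, at 60.3 ± 4.13 FPKM, than in Control, at 98.5 ± 8.70 FPKM. That log2 difference of -0.70 passed neither the size limit nor the p limit (limma, adjusted p = 0.0121). The MADS-box gene of the 6, in contrast, had almost 1 level at harvest. Between E-L 34 and E-L 38, 3 rose and 3 fell in ABA1000, 2 and 5 in NAA100, and 2 and 2 in Control. CMB1 (VIT_201s0011g00110) fell in all 3, by 1.31 in ABA1000, by 2.01 in NAA100 and by 1.64 in Control on the log2 scale (limma, adjusted p = 2.5e-11, 2.1e-15 and 2.3e-13).

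The other release factor genes moved less than eRF1-3 and started higher. VIT_218s0041g00730, also annotated as eRF1-3, averaged 277 ± 4.39 FPKM in NAA100 and 221 ± 9.19 FPKM in Control at E-L 36, a log2 difference of 0.33 that did not reach the size limit (limma, adjusted p = 0.00039). It rose between E-L 34 and E-L 38 by a log2 difference of 1.42 in ABA1000, 1.48 in NAA100 and 1.14 in Control (limma, adjusted p = 2.6e-15, 5.8e-16 and 2.0e-13). VIT_218s0001g12240 had a log2 difference of 1.05 between E-L 38 and E-L 34 in ABA1000 (limma, adjusted p = 1.6e-12), which fell under the size limit without ABA1000 E-L 38 library 1 (0.99) and with median-of-ratios scaling (0.96), and 0.71 in NAA100 and 0.63 in Control. The eRF3 gene VIT_217s0000g02860, which encodes the partner of eRF1, differed by 0.70, 0.65 and 0.50, under the size limit in all 3. Of the 3 phosphatidylserine decarboxylase genes, which act on the product of PTDSS2, 1 was called at E-L 36. VIT_212s0055g00710 fell to 7.38 ± 1.66 FPKM in NAA100, against 16.6 ± 1.66 FPKM in Control (log2 difference -1.08, limma, adjusted p = 2.7e-07), a call lost without NAA100 E-L 36 library 2 (-0.97). VIT_212s0055g00720 and VIT_200s0229g00180 had log2 differences of -0.67 and 0.14. Of the 6 RADIALIS-like relatives none rose between E-L 34 and E-L 38, and 3 fell in ABA1000, 3 in NAA100 and 4 in Control (medians -0.86, -1.18 and -1.78). Between E-L 36 and E-L 38 of ABA1000, however, VIT_203s0063g02620 rose, with 8.51 ± 4.41 FPKM at E-L 38 against 0.908 ± 0.296 FPKM at E-L 36 (log2 difference 2.23, SE 0.715, limma, adjusted p = 0.00721), a gene named here after its values were seen. None was called at E-L 36, where all but VIT_203s0063g02620 (2.31 ± 0.81 FPKM in NAA100 and 5.31 ± 1.19 FPKM in Control) averaged at most 1.01 FPKM in either group. VIT_218s0001g12530 was at 0.07 ± 0.023 FPKM in NAA100 and 1.01 ± 0.211 FPKM in Control there (log2 difference -0.91, limma, adjusted p = 8.0e-04), and adding 0.1 and not 1 before the log brought it and VIT_218s0001g12610 past the limits.

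**Figure D4:**
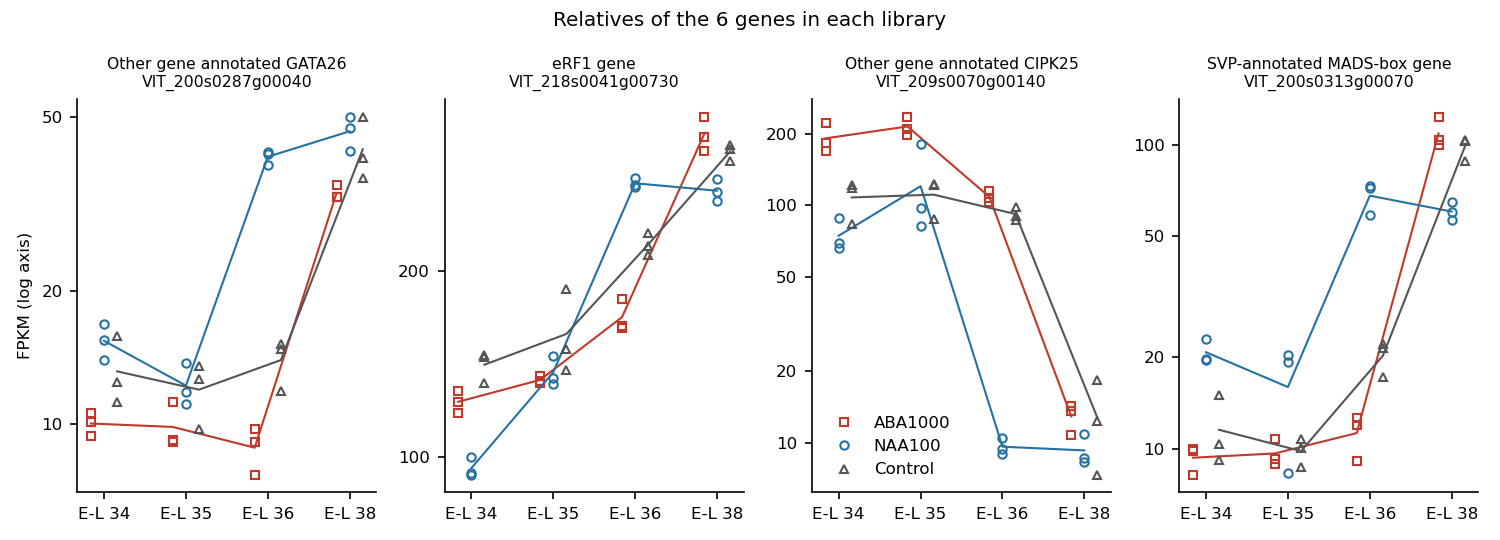
FPKM (log axis) of 4 relatives at E-L 34, 35, 36 and 38 in ABA1000 (squares), NAA100 (circles) and Control (triangles), with 1 symbol per library and lines through the means of 3. The second GATA26 gene and the SVP gene are higher in NAA100 than in Control at E-L 36 (40.5 against 14.0 FPKM and 68.0 against 20.2 FPKM on average), the eRF1 gene differs less (277 against 221 FPKM), and the other CIPK25 gene is lower (9.62 against 91.7 FPKM).

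Other genes of the study's network were counted beside the 6, from lists that the study chose at least in part on these libraries, so that their direction is not independent evidence. Of 45 further switch genes of the same expression group, 38 rose and none fell in NAA100 at E-L 36, with a median log2 difference of 1.66 against 0.09 over all genes. In ABA1000 at E-L 36, 3 fell and none rose (median -0.285 against -0.065). The gamete expressed gene VIT_212s0057g00310 was among the 3, with 1.39 ± 0.016 FPKM in ABA1000 against 6.09 ± 1.09 FPKM in Control (log2 difference -1.56, limma, adjusted p = 1.5e-07). The expansin gene VIT_215s0021g02700, which encodes a protein that loosens cell walls, was another, with 341 ± 21.2 FPKM against 782 ± 87.0 FPKM (log2 difference -1.19, limma, adjusted p = 0.00139, lost without Control E-L 36 library 1). Between E-L 34 and E-L 38, 41 of the 45 rose in ABA1000, 41 in NAA100 and 42 in Control. All 29 other hub genes of the module of GATA26 rose in NAA100 at E-L 36 (median 1.54) and none was called in ABA1000 (median -0.21), and 29, 25 and 28 rose between E-L 34 and E-L 38 in ABA1000, NAA100 and Control.

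Hormone signalling genes with a binding site of GATA26 in the study's DAP-seq, which reads the binding of a protein to naked genomic DNA, were counted in the same way. Of 22 tested, 1 rose and 1 fell in NAA100 at E-L 36, where 9.05% of all genes rose and 10.8% fell (median 0.01, against 0.09 over all genes). The cytokinin response regulator ARR12 (VIT_211s0206g00060) rose to 19.5 ± 0.137 FPKM, against 7.96 ± 0.276 FPKM in Control (log2 difference 1.19, limma, adjusted p = 1.6e-10). The auxin receptor gene TIR1 (VIT_207s0104g01320) fell to 1.97 ± 0.232 FPKM, against 5.50 ± 0.065 FPKM (log2 difference -1.13, limma, adjusted p = 4.0e-09). The 1 called in ABA1000 at E-L 36 was a PP2C phosphatase gene of abscisic acid signalling (VIT_216s0050g02680), with 16.1 ± 2.04 FPKM against 5.34 ± 1.37 FPKM in Control (log2 difference 1.44, limma, adjusted p = 0.00668), a call that did not survive leaving out any of the ABA1000 libraries or Control library 1 or 3. Between E-L 34 and E-L 38, 1 rose and 5 fell in ABA1000, 1 and 8 in NAA100, and 1 and 7 in Control (medians -0.42, -0.30 and -0.43), with ARR12 the gene that rose in all 3. The auxin repressor gene IAA27 (VIT_211s0016g03540) was among those that fell, to 3.47 ± 0.763 FPKM at E-L 38 in NAA100, against 37.1 ± 7.54 FPKM at E-L 34 (log2 difference -3.09, limma, adjusted p = 7.2e-09). Of 6 norisoprenoid genes, which act in the making or cleavage of carotenoids, 3 rose in NAA100 at E-L 36. The 3 were CCD4a, PSY2 and PSY3, which the study placed in the module of GATA26. That module was built on these libraries, so their p-values are not independent evidence. The phytoene synthase genes PSY2 (VIT_212s0028g00960) and PSY3 (VIT_206s0004g00820) rose by log2 differences of 1.59 and 1.64 (limma, adjusted p = 2.7e-08 and 3.5e-11). PSY2 averaged 12.8 ± 2.93 FPKM in NAA100 and 3.505 ± 0.059 FPKM in Control, and PSY3, a low gene, 3.28 ± 0.334 FPKM and 0.377 ± 0.185 FPKM. PSY1 (VIT_204s0079g00680), ZDS (VIT_214s0030g01740) and CCD4b (VIT_202s0087g00930), at 0.03, 0.31 and 0.88, were not called (limma, adjusted p = 0.874, 0.0756 and 0.0111). The study lists PSY1 and ZDS among the DAP-seq targets of GATA26. Between E-L 34 and E-L 38 PSY1 fell, with log2 differences of -1.81 in ABA1000, -1.87 in NAA100 and -2.12 in Control. CCD4a (VIT_202s0087g00910), which cleaves carotenoids, had 125 ± 27.3 FPKM in NAA100 and 5.39 ± 0.811 FPKM in Control (log2 difference 4.29, limma, adjusted p = 7.2e-10). It was called higher in NAA100 already at E-L 34, where none of the 6 genes passed the limits, with 36.1 ± 2.96 FPKM against 2.21 ± 1.14 FPKM in Control (log2 difference 3.59, limma, adjusted p = 3.6e-07). In ABA1000 at E-L 36 it had 0.247 ± 0.126 FPKM (log2 difference -2.36, limma, adjusted p = 7.0e-04), a call that limma voom on the recovered fragments did not make.

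The likeness of expression to GATA26 was measured by Pearson r of log2(mean FPKM + 1) over the 12 group means, which share libraries and stages, and is a description. For the other 5 genes it was 0.979 (MADS-box), 0.969 (eRF1-3), 0.958 (CIPK25), 0.956 (RADIALIS) and 0.908 (PTDSS2). Spearman's rho, which gives the large step to the high groups less weight, was lower, at 0.853, 0.727, 0.706, 0.573 and 0.566 in the same order, and 4448 other genes then had a higher value than RADIALIS, against 1048 with Pearson r. Such values were common in these libraries, since 1229 of 12784 other genes (9.61%) had an r of at least 0.95, and 309 other genes were more like GATA26 than the MADS-box gene, and 2198 more than PTDSS2. Without NAA100 E-L 36 the 5 values were 0.975, 0.961, 0.948, 0.945 and 0.89 in the same order. Among the 15 pairs of the 6 genes r lay between 0.908 (GATA26 with PTDSS2) and 0.984 (the MADS-box gene with eRF1-3 and with CIPK25). With the mean of each stage removed, PTDSS2 had the lowest values, 0.795 with CIPK25 and 0.798 with RADIALIS.

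**Figure D5:**
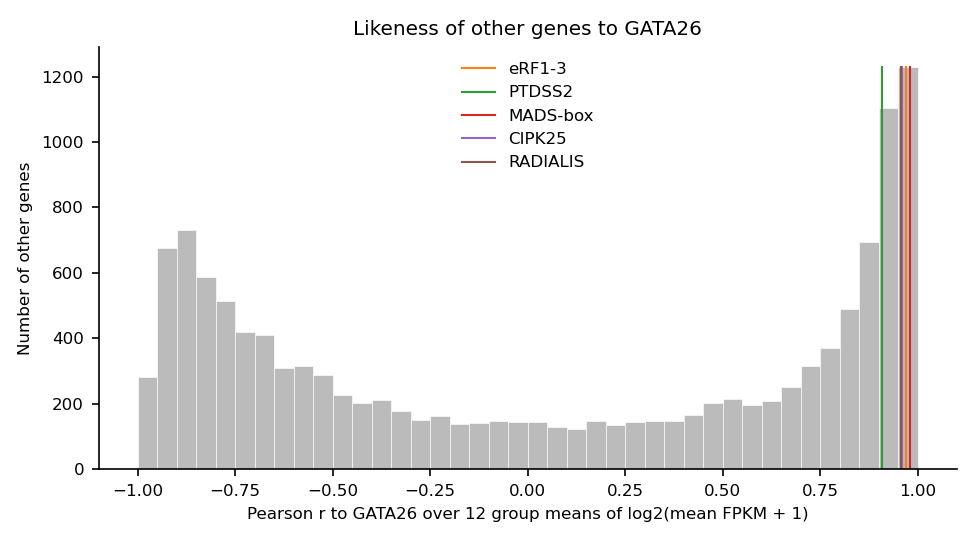
Number of other genes by their Pearson r to GATA26 over the 12 group means of log2(mean FPKM + 1), with a coloured line at the r of each of the other 5 genes. The lines lie between 0.908 and 0.979, inside the peak at the right end where 1229 of 12784 genes have an r of at least 0.95.

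Among the 5 genes most like GATA26 were a gene without a named product (VIT_202s0025g04050, r 0.997), HIR4 (VIT_216s0022g01690, 0.996), annotated as induced in the hypersensitive response, the DNA mismatch repair gene MSH6 (VIT_204s0008g05800, 0.996) and MSL2 (VIT_200s0313g00020, 0.996), a mechanosensitive channel of chloroplasts. MSL2 averaged 17.5 FPKM in NAA100 E-L 36 and 4.76 FPKM in Control E-L 36. The 3 genes most opposed were PAR1 (VIT_212s0142g00160, -0.994), a transcription factor of shade responses in Arabidopsis, the BTB/POZ gene VIT_200s0207g00230 (-0.992) and DRT100 (VIT_213s0064g01260, -0.991), which averaged 95.7 FPKM in NAA100 E-L 36 and 1417 FPKM in Control E-L 36. For the other 5 genes the 2 closest were IWS1 (VIT_207s0104g00230) and VIT_208s0040g02880 for eRF1-3, a subunit of mitochondrial NADH dehydrogenase (VIT_219s0027g00780) and ATG18h of autophagy (VIT_214s0030g00400) for PTDSS2, and CCDC130 (VIT_201s0011g02910) and VIT_200s2580g00010, annotated with a protein of the spliceosome, for the MADS-box gene. They were VIT_212s0057g00310 and the cytochrome P450 gene VIT_201s0137g00540 for CIPK25, and a serine carboxypeptidase gene (VIT_213s0019g05130) and stachyose synthase (VIT_207s0005g01680), an enzyme of raffinose family sugars, for RADIALIS, all at an r between 0.992 and 0.996. The nearest gene to RADIALIS, VIT_207s0005g02710 at 465 bp and on the other strand, is one of the 45 further switch genes and had an r of 0.897 to it. At E-L 36 that gene averaged 65.9 ± 15.3 FPKM in NAA100 and 32.4 ± 8.13 FPKM in Control (log2 difference 1.01, limma, adjusted p = 0.00058). The study grouped these switch genes by their response to the treatments in these libraries, so this p-value is not independent evidence.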

How the data were processed

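Paired-end reads of 36 libraries were mapped by the authors with TopHat to the grape reference genome, and the deposited table gives FPKM per gene and library. The build and the counting tool used for these reads are not given in the sources used here, and coordinates are those of the table, which holds no columns of fold changes. For all 17598 genes tested, FPKM steps gave whole fragments in every library (tolerance 0.05 fragments plus 2e-06 per fragment). Values were taken as log2(FPKM + 1) and 12 group means were fitted together with limma 3.58.1 (R 4.3.3, trend, 24 residual degrees of freedom, two-sided), and p-values were adjusted by Benjamini-Hochberg over all 17598 genes for each comparison. A call needed a log2 difference of 1 or more in size and an adjusted p no higher than 0.01. The script was tested on simulated data. The 6 genes and all lists were chosen with earlier results of these data known. Named besides the 6 are, in a list and comparison, the 2 largest rises and 2 largest falls called (lists of up to 6 genes in full), and for likeness, over genes with a highest group mean of at least 5 FPKM, the 5 highest and 3 lowest r to GATA26 and the 2 highest to each other gene. Other genes with the same annotation, an overlap or a shared border with 1 of the 6 were named after their values were seen. Family lists were matched on the table's descriptions. Alternatives were 0.1 added to the FPKM, no filter, a mean of at least 5 FPKM, TPM, median-of-ratios scaling, the 2 groups alone, a replicate block, each library left out and, chosen after the data were seen, limma voom on recovered fragments. No sequences were used. Of the 5 genes most like GATA26, 1 is not reported here.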

Additional observations from a re-analysis of the deposited data

Results flagged for a closer look

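For 3 of the 6 genes the treatment difference took opposite directions at 2 stages, with all libraries of the treated group on 1 side of all Control libraries at 1 stage and on the other side at the other. None of these changes between stages was tested, since the genes were chosen on these libraries. How many of all genes do the same was not counted, so nothing is read from the 3. At 1 stage alone it was common, with all NAA100 libraries above all Control libraries at E-L 36 in 41.7% of all genes. They were below at E-L 34 in 16.4%, and all ABA1000 libraries were below at E-L 36 in 24.8%. The log2 difference of eRF1-3, NAA100 minus Control, was 2.40 larger at E-L 36 than at E-L 34, being 1.98 and -0.42. The log2 difference of PTDSS2, NAA100 minus Control, was 3.28 larger at E-L 36 than at E-L 35, being 1.98 and -1.30. The log2 difference of RADIALIS, ABA1000 minus Control, was 0.82 larger at E-L 35 than at E-L 36, being 0.54 and -0.28.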

How the results depend on the processing

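No alternative turned the direction of a value past the limits. Of the genes named from lists, 2549 values stood on the same side of the limits as in the joint fit, 53 lost a call and 17 gained one, and of the 6 genes' own differences 1678 moved by less than 1 SD between libraries and 86 by more. Counts of calls are given first. Over the genes averaging 5 FPKM or more, which tests fewer genes, there were 50 calls in ABA1000 against Control at E-L 34 (121 in the joint fit) and 57 at E-L 38 (114), 375 in NAA100 against Control at E-L 34 (667) and 387 at E-L 38 (602). In that setting E-L 38 against E-L 34 gave 2784 in ABA1000 (4290), 3321 in NAA100 (5613) and 2949 in Control (4836), with 13, 16 and 13 family genes, and E-L 36 against E-L 35 gave 3125 in NAA100 (4862) and 536 in Control (820). With TPM there were 202 calls in ABA1000 against Control at E-L 34, 4 in NAA100 E-L 38 against E-L 36 (2 in the joint fit) and 1343 in Control E-L 36 against E-L 35. With the 2 groups fitted alone, which uses fewer samples, ABA1000 against Control gave 0 at E-L 34, 36 at E-L 35 (256) and 0 at E-L 38, NAA100 against Control gave 0 at E-L 35 (430) and 138 at E-L 38, NAA100 E-L 38 against E-L 36 gave 0, and NAA100 E-L 36 against Control E-L 38 gave 182 (646). With 0.1 added to the FPKM, E-L 36 against E-L 35 gave 1085 in ABA1000 (643) and 1523 in Control, and E-L 38 against E-L 36 gave 5134 in ABA1000 (3401) and 4 in NAA100. Limma voom on recovered fragments, chosen after the data were seen, gave 984 in ABA1000 and 1452 in Control for E-L 36 against E-L 35. Family genes called in ABA1000 at E-L 36 numbered 2 with TPM and 2 with the groups alone, and in NAA100 at E-L 36 19 with 0.1 added and 17 with voom. Replicates of different groups share only a number in the labels (correlations of same-numbered deviations between -0.291 and 0.338). A replicate block left 1 call in NAA100 E-L 38 against E-L 36 and moved no other count by over 1.5 times. Where not stated otherwise, the cause was not tested.

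The median log2 difference of the 6 genes in NAA100 against Control at E-L 36 (1.98) was 2.08 with TPM and 1.86 with median-of-ratios scaling. For E-L 38 against E-L 36 it was 2.62 with 0.1 added, 2.70 with TPM, 2.12 with median-of-ratios scaling and 2.63 with voom in ABA1000, and 1.83 with median-of-ratios scaling in Control. For E-L 38 against E-L 34 it was 2.89 with 0.1 added and 2.94 with voom in ABA1000, 3.49, 3.50 and, with median-of-ratios scaling, 3.31 in NAA100, and 3.26 with 0.1 added and 3.31 with voom in Control. For E-L 36 against E-L 35 it was 3.06 with 0.1 added and 3.10 with voom in NAA100, and with median-of-ratios scaling 0.34 in ABA1000 and 0.60 in Control. Median-of-ratios scaling moved the median of all genes by -0.264 in ABA1000 and -0.159 in Control for E-L 38 against E-L 36, and by 0.202 in NAA100 for E-L 38 against E-L 34. Genes with an r of at least 0.95 to GATA26 (1229) numbered 64 with Spearman's rho, 582 over the 36 libraries and 603 with stage means removed.

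Leaving out 1 library, calls in ABA1000 against Control were 20 to 158 at E-L 34, 145 to 324 at E-L 35, 51 to 103 at E-L 36 and 28 to 403 at E-L 38, and in NAA100 against Control 301 to 663 at E-L 35 and 399 to 806 at E-L 38. The libraries behind the shifts of over 1.5 times were ABA1000 1 (40) and Control 2 (20) at E-L 34, ABA1000 3 (157) and Control 1 (145) at E-L 35, ABA1000 2 (72) and 3 (68) and Control 1 (51) at E-L 36, and ABA1000 1 and 2 (45 each) and Control 1 (48), 2 (403) and 3 (28) at E-L 38. For NAA100 they were library 3 at E-L 35 (663) and Control library 1 at E-L 38 (399). NAA100 E-L 38 against E-L 36 gave 0 to 4 calls, and family genes called in ABA1000 at E-L 36 were 0 to 2. The median of the 6 genes against Control was -0.18 to 0.15 in ABA1000 at E-L 34 and -0.73 to -0.54 at E-L 36, and 1.88 to 2.09 in NAA100 at E-L 36. With 3 libraries a group an exact permutation test of 1 gene cannot give a p below 0.1.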
